A study of Homo sapiens with 80 samples.

Results

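The inflammatory chemokines were a set of 9 genes, CXCL8 (older symbol IL8), CXCL1, CXCL2, CXCL3, CXCL6, CCL2, CCL5, CCL20 and CXCL12, read on every array probe annotated to them that was detected. A probe counted as detected on an array where its deposited detection p was under 0.05, and it was kept when this held on at least 4 of the 80 arrays. Of the 9 genes, 8 had a probe, 1 each apart from CXCL12, and 6 of those 9 probes, from 5 genes, were kept among 15392 probes of 12547 genes in all. The rule looked at detection, not at any response. CXCL8, CCL2, CCL20, CXCL1 and CXCL12 passed. The probes of CXCL2, CXCL6 and CCL5 were detected on 0 arrays, with lowest detection p-values of 0.123, 0.123 and 0.0747, and no probe of the annotation used here was named for CXCL3. Nearest to the limit inside it lay the dimmer CXCL12 probe, detected on 9 arrays.

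The cells were U2OS, a human osteosarcoma line with little glucocorticoid receptor (GR) of its own, made to express 1 of 5 receptor alleles. GRalpha is the common form, GRgamma arises by splicing and carries 1 further arginine in the DNA-binding domain, A477T is altered in the dimer interface of that domain, 30iiB is altered in the amino-terminal activation function, and E773R is altered in the activation function of the ligand-binding domain. Cells in medium with 5% fetal bovine serum received dexamethasone, a synthetic glucocorticoid, at 100 nM for 2, 4 or 24 h, or its ethanol vehicle for 4 h, a group called 0 h. The 5 alleles at 4 times make 20 groups, with 4 arrays in each that the series calls biological replicates, so every comparison is 4 against 4. The vehicle matched the 4 h treatment in length, and the 2 h and 24 h groups had no vehicle arm of their own. No cytokine was named among the treatments. The sources used here do not say whether a line was 1 clone or a pool. Each allele was read in its own cells, so allele and line cannot be told apart in any difference between alleles.

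Chemokines are small secreted proteins that attract leukocytes through receptors on those cells. CXCL8, CXCL1, CXCL2, CXCL3 and CXCL6 share a motif ahead of their first cysteines and act on neutrophils through CXCR1 and CXCR2. CCL2 attracts monocytes through CCR2, CCL5 attracts T cells and monocytes, CCL20 attracts CCR6-bearing lymphocytes and dendritic cells, and CXCL12 holds CXCR4-bearing cells in bone marrow and stroma. Transcription of the inflammatory members is driven largely by NF-kB and AP-1, and glucocorticoids are known for lowering these genes through the ligand-bound receptor. CXCL12 is counted as a homeostatic chemokine.

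CXCL8 (chr4:73740569-73743716), CXCL6 (chr4:73836678-73838760), CXCL1 (chr4:73869393-73871308), CXCL3 (chr4:74036589-74038689) and CXCL2 (chr4:74097040-74099195) lie in 1 stretch of chromosome 4 in RefSeq on GRCh38.p14. CCL2 (chr17:34255285-34257203) and CCL5 (chr17:35871491-35880360) lie on chromosome 17, CCL20 (chr2:227813842-227817556) on chromosome 2 and CXCL12 (chr10:44370165-44385097) on chromosome 10. The promoters are shown first. Of the 4 windows given here, those of CXCL8, CXCL1 and CCL20 carry related NF-kB letters near their start and that of CXCL12 does not. CXCL1 stayed near the detection limit, and for CCL2, which fell, no window was available. Whether these letters bear on any change in level was not tested. Each line gives the 250 bases before the annotated start of transcription from RefSeq on GRCh38.p14, 5′ to 3′ on the gene's own strand, with capitals for matches to an NF-kB motif or to the AP-1 motif. They are CXCL8 (chr4:73740319-73740568, plus strand), CXCL1 (chr4:73869143-73869392, plus strand), CCL20 (chr2:227813592-227813841, plus strand) and CXCL12 (chr10:44385098-44385347, minus strand).
CXCL8: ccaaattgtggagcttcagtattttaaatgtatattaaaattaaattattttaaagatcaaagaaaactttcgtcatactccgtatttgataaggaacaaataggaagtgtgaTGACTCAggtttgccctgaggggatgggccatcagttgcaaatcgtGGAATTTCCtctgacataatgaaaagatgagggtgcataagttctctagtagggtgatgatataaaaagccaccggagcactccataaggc
CXCL1: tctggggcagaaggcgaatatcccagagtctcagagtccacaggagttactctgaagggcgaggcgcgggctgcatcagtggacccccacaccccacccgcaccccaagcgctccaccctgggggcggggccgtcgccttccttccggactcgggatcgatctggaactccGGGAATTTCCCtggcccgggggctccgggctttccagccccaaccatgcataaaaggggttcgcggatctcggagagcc
CCL20: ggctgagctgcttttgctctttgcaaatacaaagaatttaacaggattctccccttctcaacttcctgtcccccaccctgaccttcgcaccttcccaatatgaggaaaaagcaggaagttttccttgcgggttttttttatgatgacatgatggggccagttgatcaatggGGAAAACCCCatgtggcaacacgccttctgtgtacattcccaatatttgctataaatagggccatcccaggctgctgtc
CXCL12: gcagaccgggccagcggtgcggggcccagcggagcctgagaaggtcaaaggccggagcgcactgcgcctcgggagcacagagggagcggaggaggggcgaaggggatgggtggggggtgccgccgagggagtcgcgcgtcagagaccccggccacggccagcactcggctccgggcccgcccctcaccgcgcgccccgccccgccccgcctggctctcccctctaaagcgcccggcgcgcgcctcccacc
Of the 9 members 7 matched the promoter table by symbol, and CCL2 and CCL5 did not. Motifs were searched on both strands. The letters GGAATTTCC stood in the windows of CXCL8, CXCL1, CXCL2, CXCL3 and CXCL6, and in 0.413% of the 35114 RefSeq promoters of the same length. In CXCL8 they began 91 bases before the start, in CXCL1 78 and in CXCL6 89. The broader NF-kB consensus, whose matches overlap those letters, was met in CXCL1, CXCL2, CXCL3 and CXCL6 and, as GGAAAACCCC beginning 79 bases before the start, in CCL20. It was met in 5.21% of all promoters. The AP-1 motif TGANTCA was found in the CXCL8 window, as TGACTCA, and in 6.57% of all promoters. AGAACA, letters that the receptor binds, was found in the CXCL2 window and in 12.4% of all. The full receptor palindrome, met in 0.00285% of all promoters, and the C/EBP motif TTGCNCAA, met in 2.27%, were found in none of the 7 windows. The CXCL12 window held none of the motifs searched, which says only that these letters are not in that window.

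The 80 arrays lay on 10 slides. Median raw intensity per array ran from 82 to 926, and 12233 to 17333 probes were detected on an array. Of 8 bone and mesenchyme markers with a probe, ALPL, COL1A1, RUNX2, SPP1 and VIM were detected on all 80 arrays, and of 8 leukocyte markers 0 were, with CD79A alone detected on over 40. Of 6 endothelial markers KDR, PECAM1, TEK and VWF were detected on over 40 arrays. Of 6 epithelial markers CDH1, EPCAM and KRT14 were. No endothelial or epithelial marker was detected on all 80. The receptor gene NR3C1 averaged from 6.92 in GRgamma to 7.96 in GRalpha cells on its brighter probe at 0 h, on the log2 scale used throughout. That probe was not placed relative to the introduced sequence, so it does not measure the allele. In these bulk samples fewer cells making a chemokine and less of its RNA per cell cannot be told apart.

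CXCL8, CCL2 and CCL20 were detected on all 20 hormone-free arrays and were lower after 24 h of dexamethasone in every allele. CXCL8 had the widest range. Its level was higher in A477T than in GRalpha cells at 4 and 24 h, a comparison added after the data were seen. The difference between the 2 responses was not called at either time. At 0 h CXCL8 was also higher in A477T cells, by 1.75, which was not called. CCL2 fell at 24 h in A477T cells as in the others. CXCL12 instead stood higher on its brighter probe in GRgamma than in GRalpha cells at every time. CXCL1 stayed close to the detection limit, and the main model called it in no comparison. Levels are background-corrected, quantile-normalised log2 intensities from limma's neqc, and 1 limma model of the 20 groups gave every difference. A called difference had a p, adjusted by Benjamini and Hochberg over the 15392 probes, under 0.05. Levels of different probes are not compared.

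**Figure D1:**
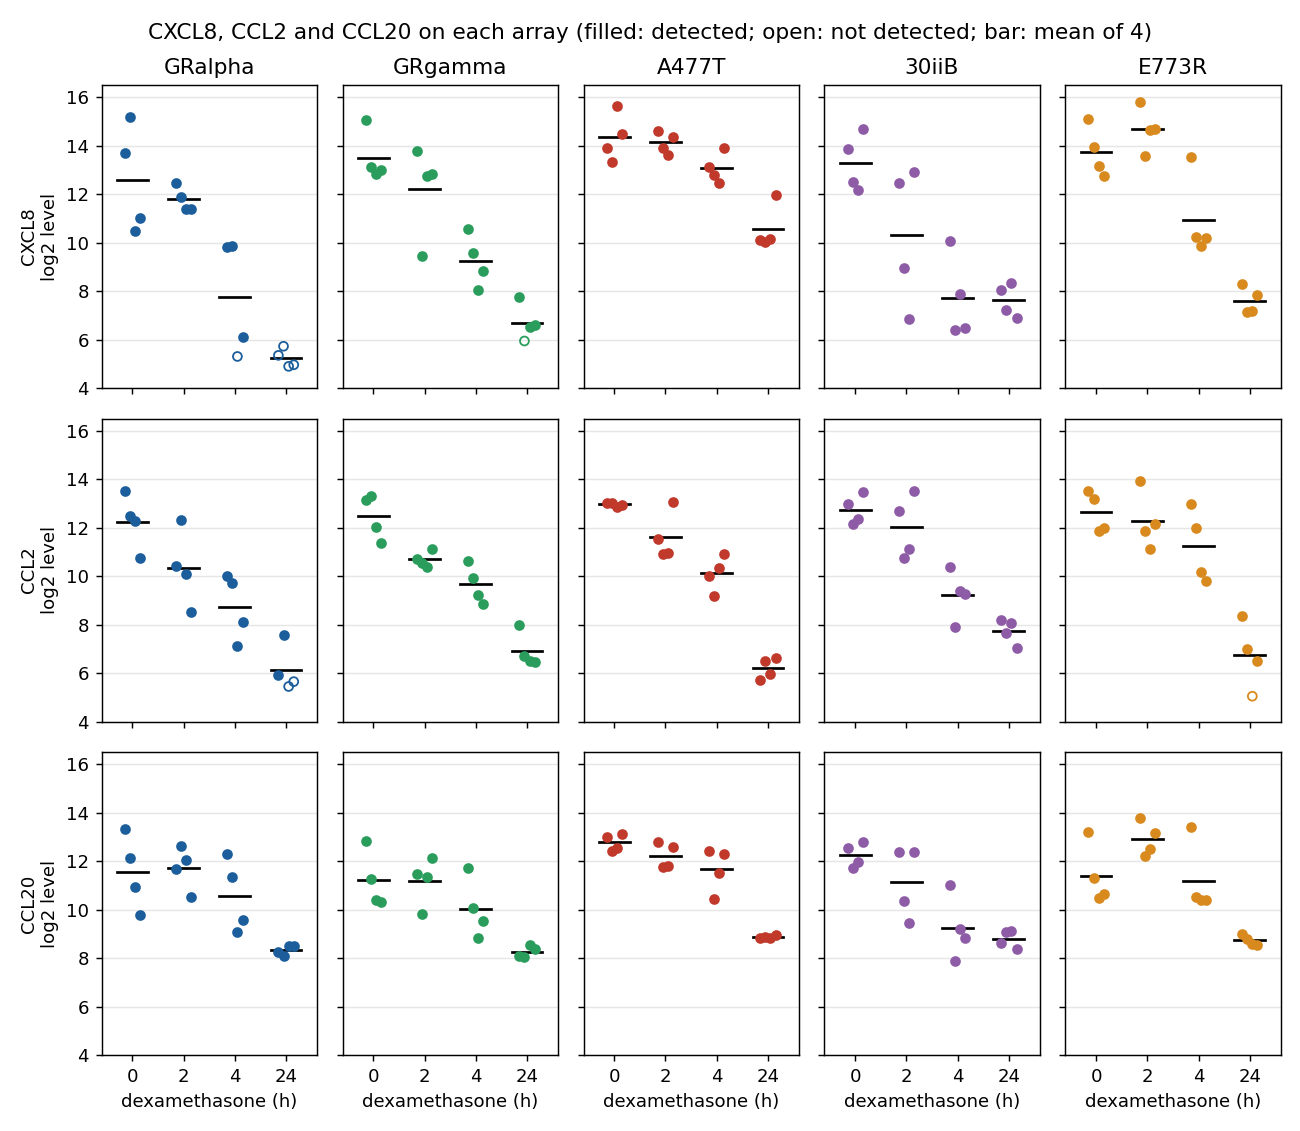
Log2 level of CXCL8, CCL2 and CCL20 (rows) on each of 80 arrays, by allele (columns) and hours of dexamethasone (0 h is 4 h of vehicle). Filled points were detected, open points were not, and bars are means of 4 arrays. The mean of all 3 genes was lowest at 24 h in every allele, and CXCL8 in A477T cells did not go below 10.02.

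CXCL8, the main neutrophil attractant of human cells, varied widely before hormone, and most of all in GRalpha cells. There the 4 arrays read 13.69, 15.19, 10.48 and 11.00, with replicates 1 and 2 high and replicates 3 and 4 low. That range of 4.71 on the log2 scale, with an SD of 2.23, compared with SDs from 0.988 to 1.18 in the other alleles. Wide spread was not limited to 0 h. The SD of CXCL8 reached 2.90 in 30iiB cells at 2 h and 2.41 in GRalpha cells at 4 h, and ran from 0.384 to 0.939 at 24 h. GRgamma cells read 15.05, 13.11, 12.82 and 12.99, with replicate 1 apart from the rest. A477T cells read 13.90, 13.33, 15.64 and 14.49 and 30iiB cells 13.86, 12.49, 12.16 and 14.68. E773R cells read 15.08, 13.95, 13.16 and 12.76. All 5 alleles overlapped. The means, from lowest to highest, came in the order GRalpha, 30iiB, GRgamma, E773R and A477T, and none of the 4 variants was called against GRalpha, with A477T the most distant at 1.75 (95% interval -0.12 to 3.63, adjusted p = 0.4).

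CCL2, which attracts monocytes, spread less before hormone. The GRalpha arrays read 13.52, 12.48, 12.26 and 10.73, and the A477T arrays read 13.03, 13.02, 12.86 and 12.92. GRgamma cells read 13.13, 13.31, 12.05 and 11.36, 30iiB cells 12.97, 12.15, 12.35 and 13.48 and E773R cells 13.52, 13.17, 11.86 and 11.99, so the alleles overlapped. SDs ran from 0.0855 in A477T to 1.15 in GRalpha cells, and the A477T SD was 0.285 under median scaling of the arrays. CCL20, which attracts CCR6-bearing cells, overlapped between alleles too. The GRalpha arrays read 13.34, 12.13, 10.94 and 9.79 and the A477T arrays 13.00, 12.41, 12.56 and 13.14, with SDs from 0.349 in A477T to 1.53 in GRalpha cells. GRgamma cells read 12.84, 11.26, 10.41 and 10.32, with replicate 1 the highest. Neither gene was called against GRalpha cells at 0 h in any variant, and CCL20 in A477T cells came nearest at 1.23 (95% interval -0.10 to 2.56, adjusted p = 0.407).

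Arrays high in one of these genes at 0 h tended to be high in the others. Over the 20 hormone-free arrays, after the mean of each allele was taken away, Pearson's r was 0.75 between CXCL8 and CCL20, 0.61 between CXCL8 and CCL2, and 0.87 between CCL2 and CCL20. These are descriptions over arrays that share slides and cultures. The number of detected probes and the array's median intensity tracked the same deviations of CXCL8 weakly over all 80 arrays, with r of 0.149 and 0.295. The 4 GRalpha arrays at 0 h had median raw intensities of 217, 397, 237 and 251 in replicate order, and lay on 4 different slides. The part of the array or slide in this spread was not tested.

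**Figure D2:**
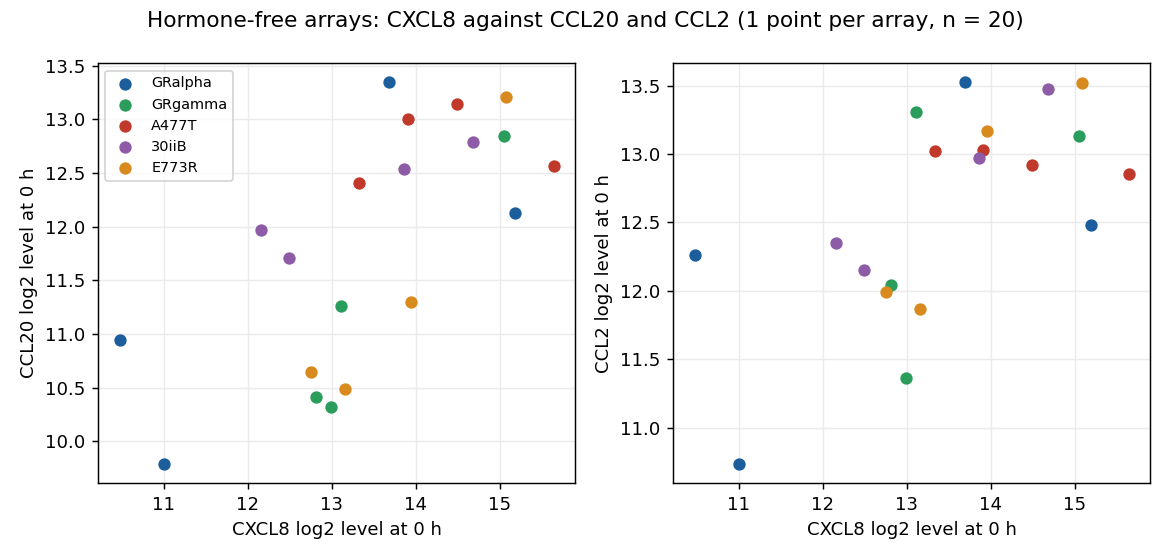
Log2 level of CXCL8 (horizontal) against CCL20 (left) and CCL2 (right) on the 20 vehicle-treated arrays, coloured by allele. GRalpha points span the widest range on the CXCL8 axis, from 10.48 to 15.19, and arrays low in CXCL8 tend to be low in both other genes.

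At 2 h of dexamethasone 0 of the 6 kept probes were called in each allele by limma, beside 1.62% of all probes for GRalpha cells, 1.5% and 1.58% for GRgamma and A477T cells, and 2.1% and 0.312% for 30iiB and E773R cells. Unadjusted p was under 0.05 for 2 probes in E773R cells, for 1 each in GRalpha, GRgamma and 30iiB cells and for 0 in A477T cells. CXCL8 in 30iiB cells moved most. It read 12.44, 8.97, 6.84 and 12.92 at 2 h, so replicates 2 and 3 lay below every hormone-free array of the allele while replicates 1 and 4 lay among them. The mean difference from 0 h was -3.01 (SE 0.94, adjusted p = 0.086 in limma). Without replicate 1 of the 2 h group the adjusted p was 0.0251, and without replicate 4 it was 0.0139. CCL2 in GRalpha cells read 10.42, 12.30, 10.10 and 8.52, a difference of -1.91 (adjusted p = 0.236), and without replicate 2 of the 2 h group the adjusted p was 0.0398. In GRgamma cells the CCL2 arrays at 2 h, from 10.40 to 11.12, all lay below those at 0 h, from 11.36 to 13.31. That difference of -1.77 was not called (adjusted p = 0.316 in limma). It was called on the series matrix values (0.0323) and with a replicate block within allele (0.0187). Levels in E773R cells at 2 h were not lower than at 0 h on average for CXCL8 and CCL20. CXCL8 read 15.78, 13.55, 14.65 and 14.67, a difference of 0.93 (95% interval -0.95 to 2.80). CCL20 read 13.77, 12.23, 12.52 and 13.18 against 13.21, 11.30, 10.49 and 10.65 at 0 h, a difference of 1.51 that was not called (adjusted p = 1).

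At 4 h, the time matched by the vehicle, the first members were called lower. Of the 6 kept probes 2 were called lower in GRalpha cells, beside 1.76% of all probes, and 2 in GRgamma cells, beside 1.2%. In A477T cells 1 was called lower, beside 1.31%, in 30iiB cells 3, beside 1.75%, and in E773R cells 0, beside 1.05% of all probes called in either direction. For E773R cells 2 probes had an unadjusted p under 0.05.

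CXCL8 at 4 h read 9.82, 9.87, 5.30 and 6.11 in GRalpha cells, where replicates 1 and 2 were again the higher pair and replicate 3 was not detected. All 4 lay below the 4 hormone-free arrays. The fall was 4.81 on the log2 scale, or 28.1-fold (SE 0.94, adjusted p = 0.000168, and 0.0604 with the 8 compared arrays fitted alone). In GRgamma cells CXCL8 read 10.55, 9.56, 8.06 and 8.81 and fell 19-fold (adjusted p = 0.00142). In 30iiB cells it read 10.07, 6.38, 7.87 and 6.46, with replicate 1 above the others, and fell 48.6-fold (adjusted p = 1.00e-05). Neither group overlapped its hormone-free arrays.

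A477T and E773R cells had no called change of CXCL8 at 4 h. In A477T cells the arrays read 13.13, 12.79, 12.47 and 13.89, overlapping 0 h, and the difference was -1.27 (95% interval -3.15 to 0.60, adjusted p = 0.833). In E773R cells they read 13.52, 10.21, 9.87 and 10.19. There 3 arrays lay near 10 and replicate 1 lay within the hormone-free range, which left a difference of -2.79 (95% interval -4.67 to -0.91, adjusted p = 0.194). Without that array the adjusted p was 0.0388.

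CCL2 fell at 4 h in 4 of the 5 alleles. It read 9.99, 9.70, 7.13 and 8.10 in GRalpha cells, 11.4-fold below 0 h (adjusted p = 0.00014). In A477T cells it read 9.99, 9.20, 10.35 and 10.90, all below the 0 h arrays, a fall of 7.2-fold (adjusted p = 0.00476). GRgamma cells read 10.63, 9.94, 9.24 and 8.85 and 30iiB cells 10.37, 7.90, 9.38 and 9.26, again without overlap with 0 h. They fell 6.95-fold and 11.4-fold (adjusted p = 0.00467 and 0.000151). In E773R cells the arrays read 12.98, 11.99, 10.18 and 9.79, overlapping 0 h, with a difference of -1.40 (95% interval -2.76 to -0.05, adjusted p = 0.442). With arrays weighted by their fit that difference was -2.34 (adjusted p = 0.00907).

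CCL20, the ligand of CCR6, was called at 4 h in 30iiB cells alone. There it read 11.03, 7.88, 9.22 and 8.85, below 12.54, 11.71, 11.97 and 12.78 at 0 h, a fall of 8.01-fold (SE 0.67 on the log2 scale, adjusted p = 0.00134). In GRalpha cells it read 12.30, 11.35, 9.09 and 9.56, with replicates 1 and 2 within the 0 h range, and in A477T cells 12.43, 10.46, 11.53 and 12.29. In the 4 alleles without a call the differences in CCL20 ran from -1.16 in GRgamma to -0.23 in E773R cells, and the 4 h arrays overlapped those at 0 h. The response of 30iiB cells minus that of GRalpha cells was -2.02 (95% interval -3.91 to -0.14), with an adjusted p of 0.782, so the difference between the alleles was not called.

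At 24 h CXCL8, CCL2 and CCL20 were called lower in all 5 alleles, so 3 of the 6 kept probes were lower in each. Beside them the share of all probes called lower was 8.48% for GRalpha, 7.02% for GRgamma and 4.24% for A477T cells, and 7.67% and 2.32% for 30iiB and E773R cells. The median over the 6 probes in GRalpha cells was -1.62 on the log2 scale, against -0.02 over all probes tested. For these 3 genes every 24 h array lay below every 0 h array of its allele. CXCL12 in GRgamma cells was the 1 call in the other direction, beside 9.17% of probes called higher there.

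CXCL8 in GRalpha cells went below detection on all 4 arrays at 24 h, where the probe read 5.35, 5.72, 4.89 and 4.96. The fall was therefore at least 106-fold (adjusted p = 2.59e-09), counted from the mean of the hormone-free arrays to the lowest detected signal of each array or the probe's own value. Without replicate 2 at 0 h the bound was 58-fold and without replicate 3 it was 172-fold. It was 67.5-fold with an offset of 50, 32.2-fold on the series matrix values and 30.3-fold without background correction, and the fall was called in all 20 alternatives run. In GRgamma cells it read 7.74, 5.94, 6.53 and 6.58, with replicate 2 not detected, and fell 111-fold (adjusted p = 3.62e-08). In E773R cells it read 8.30, 7.12, 7.16 and 7.83 and in 30iiB cells 8.04, 7.20, 8.35 and 6.91, falls of 70.2-fold and 51.1-fold (adjusted p = 1.24e-06 and 2.22e-06). Over 20 alternatives the log2 difference of CXCL8 ran from -7.15 to -5.30 in GRgamma, -6.46 to -5.27 in E773R and -6.06 to -4.56 in 30iiB cells. A477T cells stood apart. Their arrays read 10.09, 10.02, 10.16 and 11.96, each above all 16 arrays of the other alleles at 24 h, and the fall was 13.8-fold (adjusted p = 0.00328). Over 20 alternatives its log2 difference ran from -4.26 to -3.35. Their mean at 0 h, 14.34, was also the highest of the alleles. The A477T response minus the GRalpha response at 24 h was not called (adjusted p = 0.147 in limma).

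CCL2 in A477T cells did not stand above the other alleles at 24 h. It read 5.71, 6.51, 5.98 and 6.61 and fell 108-fold (SE 0.68 on the log2 scale, adjusted p = 1.65e-12). GRalpha cells read 5.91, 7.57, 5.45 and 5.65, with replicates 3 and 4 not detected, a fall of 68.8-fold (adjusted p = 3.16e-11). The 4 arrays of A477T cells lay within the range of the GRalpha arrays. GRgamma cells read 7.98, 6.69, 6.52 and 6.45 and 30iiB cells 8.19, 7.65, 8.08 and 7.05. E773R cells read 8.37, 6.98, 5.05 and 6.51, with replicate 3 not detected. GRgamma, E773R and 30iiB cells fell 46.9-, 60- and 31.9-fold (adjusted p = 1.03e-09, 4.09e-10 and 1.61e-08). These sizes depend on the processing. Over 20 alternatives the log2 difference of CCL2 ran from -6.89 to -5.04 in A477T and from -6.61 to -4.40 in GRalpha cells. It ran from -5.92 to -4.23 in GRgamma, -6.46 to -4.37 in E773R and -5.19 to -4.02 in 30iiB cells.

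CCL20 arrays lay closer together at 24 h than without hormone. The GRalpha arrays, which had spread from 9.79 to 13.34 without hormone, read 8.26, 8.08, 8.52 and 8.50. GRgamma cells read 8.08, 8.07, 8.54 and 8.39, 30iiB cells 8.63, 9.07, 9.11 and 8.39 and E773R cells 8.998, 8.81, 8.60 and 8.54. A477T cells, close together, read 8.84, 8.89, 8.83 and 8.96, and the SD of an allele ran from 0.0587 to 0.348 at 24 h against 0.349 to 1.53 at 0 h. The gene remained detected on all 80 arrays, and its falls were 9.27-fold for GRalpha, 7.67-fold for GRgamma, 14.9-fold for A477T, 10.9-fold for 30iiB and 6.38-fold for E773R cells. The adjusted p ran from 7.97e-06 in A477T to 0.00547 in E773R cells, and without E773R replicate 1 at 0 h the last became 0.0831. In 11 pairs a 24 h and a 0 h array of the same allele shared a slide. All 3 genes were lower at 24 h in 11 of 11. No 24 h array reached the 0 h arrays of its allele, so that count was fixed in advance and does not check the slides. At 4 h the level was lower in 8 of 8 such pairs for CXCL8 and for CCL2, and in 7 of 8 for CCL20. There too, alleles without overlap could give no other result.

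**Figure D3:**
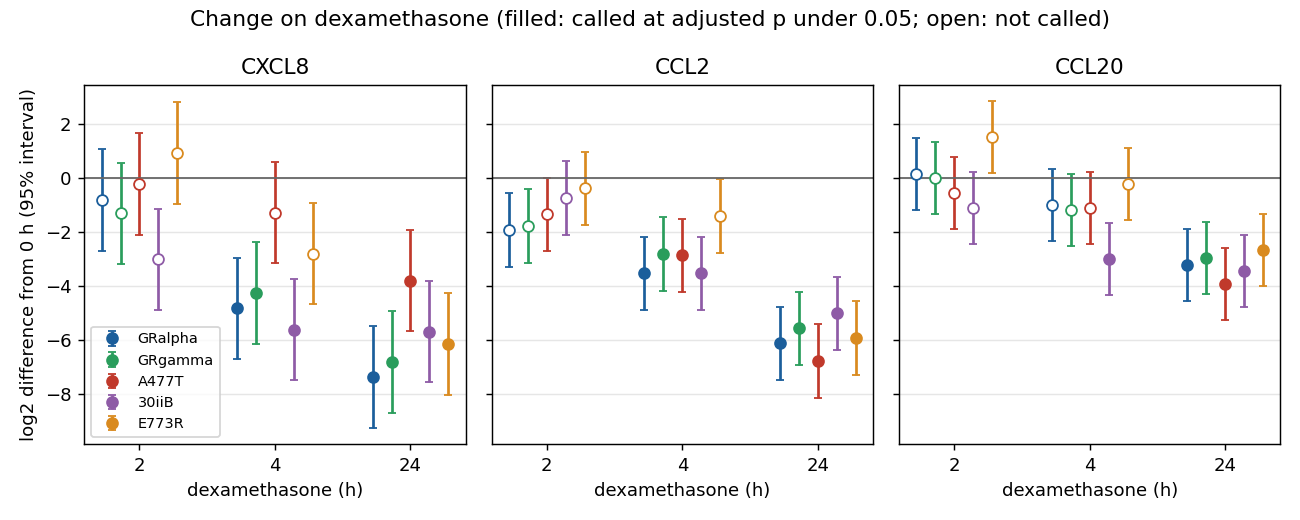
Log2 difference from 0 h (vertical, with its 95% interval) of CXCL8, CCL2 and CCL20 after 2, 4 and 24 h of dexamethasone, coloured by allele, from the model of all 80 arrays. Filled points were called at adjusted p under 0.05. At 2 h all points are open, at 24 h all are filled, and the CXCL8 points of A477T cells lie highest at 24 h. The CXCL8 point of GRalpha cells at 24 h is the fitted value of arrays that were not detected, for which only the bound of 106-fold stands.

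The course from 4 to 24 h was taken between hormone-treated arrays, in the same model of all 80 arrays, so the spread of the hormone-free groups still entered its errors. Over this interval 2 of 6 kept probes were called lower in GRalpha cells, beside 5.11% of all probes, 1 in GRgamma cells beside 4.07%, 2 in A477T cells beside 2.18% and 3 in E773R cells beside 1.3%. In 30iiB cells 0 were called by limma, beside 11.4% of probes called in either direction, and 1 had an unadjusted p under 0.05. CCL2 was called lower at 24 than at 4 h in 4 alleles, with log2 differences of -2.59 in GRalpha, -2.75 in GRgamma, -3.91 in A477T and -4.51 in E773R cells (adjusted p = 0.00549, 0.00344, 2.64e-05 and 2.03e-06). In GRalpha cells that call was lost without background correction (adjusted p = 0.119).

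The 30iiB cells, whose 3 genes had all been called at 4 h, gave a difference between 24 and 4 h of -0.07 for CXCL8 (95% interval -1.95 to 1.81), -0.45 for CCL20 (-1.78 to 0.88) and -1.48 for CCL2 (-2.84 to -0.13), none of them called. CXCL8 in E773R cells was called over the interval at -3.34 (adjusted p = 0.0253). That call was lost without replicate 1 at 4 h (0.168), and without replicate 2 (0.0739) or 3 (0.0827) at 24 h. It was lost also without background correction (0.056), with median scaling (0.115) and with the compared arrays fitted alone (0.0847). CXCL8 in GRgamma cells gave -2.54 (adjusted p = 0.0827) and in A477T cells -2.51 (0.133), neither called. With the compared arrays fitted alone the adjusted p was 0.0195 in GRgamma and 0.0198 in A477T cells, and they were called in 5 and 6 of 20 alternatives. CXCL8 in GRalpha cells, detected on 3 arrays at 4 h and on 0 at 24 h, was at least 3.76-fold lower at 24 h, and this was not called (adjusted p = 0.0766). The bound ran from 2.32-fold without replicate 2 at 4 h, and 2.35-fold without replicate 1, to 6.66-fold without replicate 3, and was 2.18-fold without background correction. Its adjusted p became 0.0179 without replicate 3 and 0.0393 without replicate 4 at 4 h.

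CCL20 over the same interval was called in A477T cells at -2.80 (adjusted p = 0.00379), in E773R cells at -2.44 (0.0195) and in GRalpha cells at -2.23 (0.018). In E773R cells the adjusted p was 0.178 without replicate 1 at 4 h, 0.06 without replicate 3 and 0.0543 without replicate 4 at 24 h. In GRalpha cells it was 0.151 without replicate 1 at 4 h, 0.0822 without replicate 2 at 4 h and 0.0536 without replicate 2 at 24 h. With median scaling the calls were lost in E773R (0.164) and GRalpha cells (0.0513), and with the compared arrays fitted alone in E773R cells (0.154). GRgamma cells were not called at -1.78 (0.0897), and were (0.0498) without replicate 3 at 4 h.

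Whether a variant responded unlike GRalpha was asked by the difference of the 2 responses, which shares the GRalpha arrays among all variants and carries the spread of both hormone-free groups. Of the kept probes 0 were called in 24 tests at each of 2, 4 and 24 h in limma. Beside them the share of all probes called in either direction was 0.091%, 0.325% and 1.77% for GRgamma at 2, 4 and 24 h, and 0.403%, 1.29% and 4.53% for A477T. It was 0%, 0.0455% and 0.305% for 30iiB, and 0.11%, 0.383% and 1.53% for E773R. Unadjusted p was under 0.05 in 4 of 24 tests at 4 h, 1 at 24 h and 0 at 2 h. The largest difference at 4 h was that of CXCL8 in A477T cells. The A477T response minus the GRalpha response was 3.54 at 4 h (95% interval 0.88 to 6.20, adjusted p = 0.354), and with arrays weighted by their fit the adjusted p was 0.00183. At 24 h, with the GRalpha arrays not detected, the difference was at least 2.94 on the log2 scale and was not called (adjusted p = 0.147). That bound was 2.07 without GRalpha replicate 2 at 0 h, 3.64 without replicate 3 at 0 h and 1.16 on the series matrix values, and the adjusted p with array weights was 0.0247. For CCL2 the same differences were 0.67 (-1.25 to 2.59) and -0.65 (-2.57 to 1.27).

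Levels in hormone can also be compared between alleles at the same time, without the 0 h arrays, a comparison added after the data had been seen. CXCL8 was higher in A477T than in GRalpha cells by 5.29 at 4 h, 39.3-fold (adjusted p = 2.96e-05), and at least 25.9-fold at 24 h (adjusted p = 1.22e-05). The groups did not overlap at either time, and both calls held in all 19 alternatives run. The bound at 24 h ran from 18.7- to 29.3-fold when 1 array was left out. It was 16.8-fold with an offset of 50, 7.71-fold without background correction and 7.6-fold on the series matrix values. It was the 1 kept probe of 6 called in the A477T comparison at each time, beside 2.83% of all probes called higher at 4 h and 5.54% at 24 h. Already at 2 h the A477T arrays, 14.62, 13.92, 13.61 and 14.36, lay above the GRalpha arrays, 12.44, 11.90, 11.40 and 11.40, and that difference of 2.34 was not called (adjusted p = 0.184), beside 4.28% of all probes called in either direction at 2 h. CCL2 at 24 h differed between these alleles by 0.06 (95% interval -1.30 to 1.41) and CCL20 by 0.54 (-0.79 to 1.87).

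E773R cells had 2 of the 6 kept probes called higher than GRalpha cells at 4 h, CXCL8 and CCL2, beside 0.858% of all probes. The differences were 3.17 for CXCL8 (adjusted p = 0.0434) and 2.50 for CCL2 (0.0209). The arrays of both alleles overlapped, and each call was lost when any 1 of 4 arrays was left out. For CXCL8 the adjusted p was 0.27 without GRalpha replicate 3, 0.198 without GRalpha replicate 4, 0.193 without E773R replicate 1 and 0.0679 without E773R replicate 2. For CCL2 the same 4 omissions gave 0.163, 0.0848, 0.127 and 0.125. With median scaling the adjusted p was 0.181 for CXCL8 and 0.15 for CCL2, and with the compared arrays fitted alone 0.44 and 0.325. For CXCL8 it was 0.148 without background correction, 0.0667 with an offset of 50 and 0.0549 without the detection filter. At 2 h and at 24 h 0 of 6 probes were called in limma, beside 1.4% and 4.47% of all, with 2 and 1 at an unadjusted p under 0.05 and CXCL8 at 24 h at least 3.34-fold higher (adjusted p = 0.187). That bound was 1.68-fold without background correction and 1.58-fold on the series matrix values. 30iiB cells had 0 of 6 probes called against GRalpha cells at 2, 4 or 24 h in limma, beside 4.38%, 1.57% and 1.59% of all. Unadjusted p was under 0.05 for 1, 0 and 2 of them, with CCL2 at 2 h at 1.67 (adjusted p = 0.139, and 0.0226 without GRalpha replicate 2). Without that same array CCL2 in E773R cells at 2 h, 1.93 above GRalpha cells, went from an adjusted p of 0.224 to 0.0427.

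CXCL12, the CXCR4 ligand of stroma, differed between GRgamma and GRalpha cells with and without hormone. Its brighter probe, ILMN_1791447, was detected on 59 arrays, among them all 16 of GRgamma cells. The GRgamma arrays read 7.36, 6.63, 7.22 and 6.82 at 0 h against 5.70, 6.46, 5.72 and 5.21 in GRalpha cells, where replicate 2 alone was detected. No array overlapped, and the difference was 1.24 (SE 0.27, adjusted p = 0.00646). It was the 1 call among 24 tests of members against GRalpha at 0 h, beside 0.123% of all probes called higher in GRgamma cells and 2.17%, 1.29% and 0.526% called in either direction in A477T, 30iiB and E773R cells. Without GRalpha replicate 4 the adjusted p was 0.0915, and without GRgamma replicate 1 it was 0.0679. With the compared arrays fitted alone it was 0.415, and with array weights 0.185.

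In hormone the gap between the alleles was called at each time. At 2 h GRgamma cells were 1.29 above GRalpha cells (adjusted p = 0.00256, and 0.468 with the compared arrays fitted alone). At 4 h the GRgamma arrays read 7.84, 7.89, 8.09 and 7.63 and the GRalpha arrays 6.43, 6.14, 6.31 and 6.46, a difference of 1.53 (adjusted p = 6.40e-05). At 24 h they read 7.70, 7.88, 7.88 and 7.74 and 6.02, 5.93, 6.90 and 5.20, a difference of 1.78, or 3.44-fold (adjusted p = 6.81e-07). No groups overlapped. Among all probes 0.377%, 0.63% and 2.32% were called higher in GRgamma cells at 2, 4 and 24 h. The other 3 variants lay between -0.32 and 0.37 of GRalpha cells in hormone, with none called.

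Within GRgamma cells CXCL12 rose by 0.79 from 0 to 24 h (1.73-fold, adjusted p = 0.0293), opposite in sign to the 3 inflammatory genes. The adjusted p went to 0.112 or 0.0843 without replicate 2 or 4 at 0 h, and to 0.0688 or 0.0657 without replicate 2 or 3 at 24 h, and to 0.0514 with median scaling. At 4 h the difference was 0.86 with an adjusted p of 0.0506, and it was called in 10 of 20 alternatives, with adjusted p from 0.000242 on the series matrix values to 0.216, and 0.0365 without replicate 1 at 0 h. The response of GRgamma cells minus that of GRalpha cells was not called, at 0.55 at 24 h (95% interval -0.20 to 1.30, adjusted p = 1).

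The dimmer CXCL12 probe, ILMN_1689111, was detected on 9 arrays, all of GRgamma cells, so it was kept because of that allele and its difference from GRalpha supports nothing further. It read 5.62, 6.51, 5.74 and 7.29 in GRgamma cells at 24 h, of which replicates 2 and 4 were detected, and 4.89, 5.12, 5.10 and 4.84 in GRalpha cells, none detected. GRgamma cells were at least 1.21-fold higher at 4 h and at least 1.34-fold at 24 h (adjusted p = 0.00098 and 0.000789, and 0.0782 and 0.118 with median scaling). The measured means behind these bounds were 6.17 ± 0.54 and 4.80 ± 0.15 at 4 h (SD, n = 4), and 6.29 ± 0.78 and 4.99 ± 0.14 at 24 h. Its difference between 0 and 24 h in GRgamma cells was not called (0.73, adjusted p = 0.0638), and the adjusted p was 0.00702 without replicate 1 at 0 h, and 0.0197 or 0.0272 without replicate 1 or 3 at 24 h. At 2 h, with 0 GRalpha arrays detected, GRgamma cells were at least 1.14-fold higher, which was not called (adjusted p = 0.0695, and 0.00771 without GRgamma replicate 4). Over the 20 group means the 2 CXCL12 probes correlated at r = 0.93. The GRgamma groups, through which the dimmer probe was kept, enter that value, so it adds no support. Over the 80 arrays after removal of the group means r was 0.05. Both are descriptions.

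**Figure D4:**
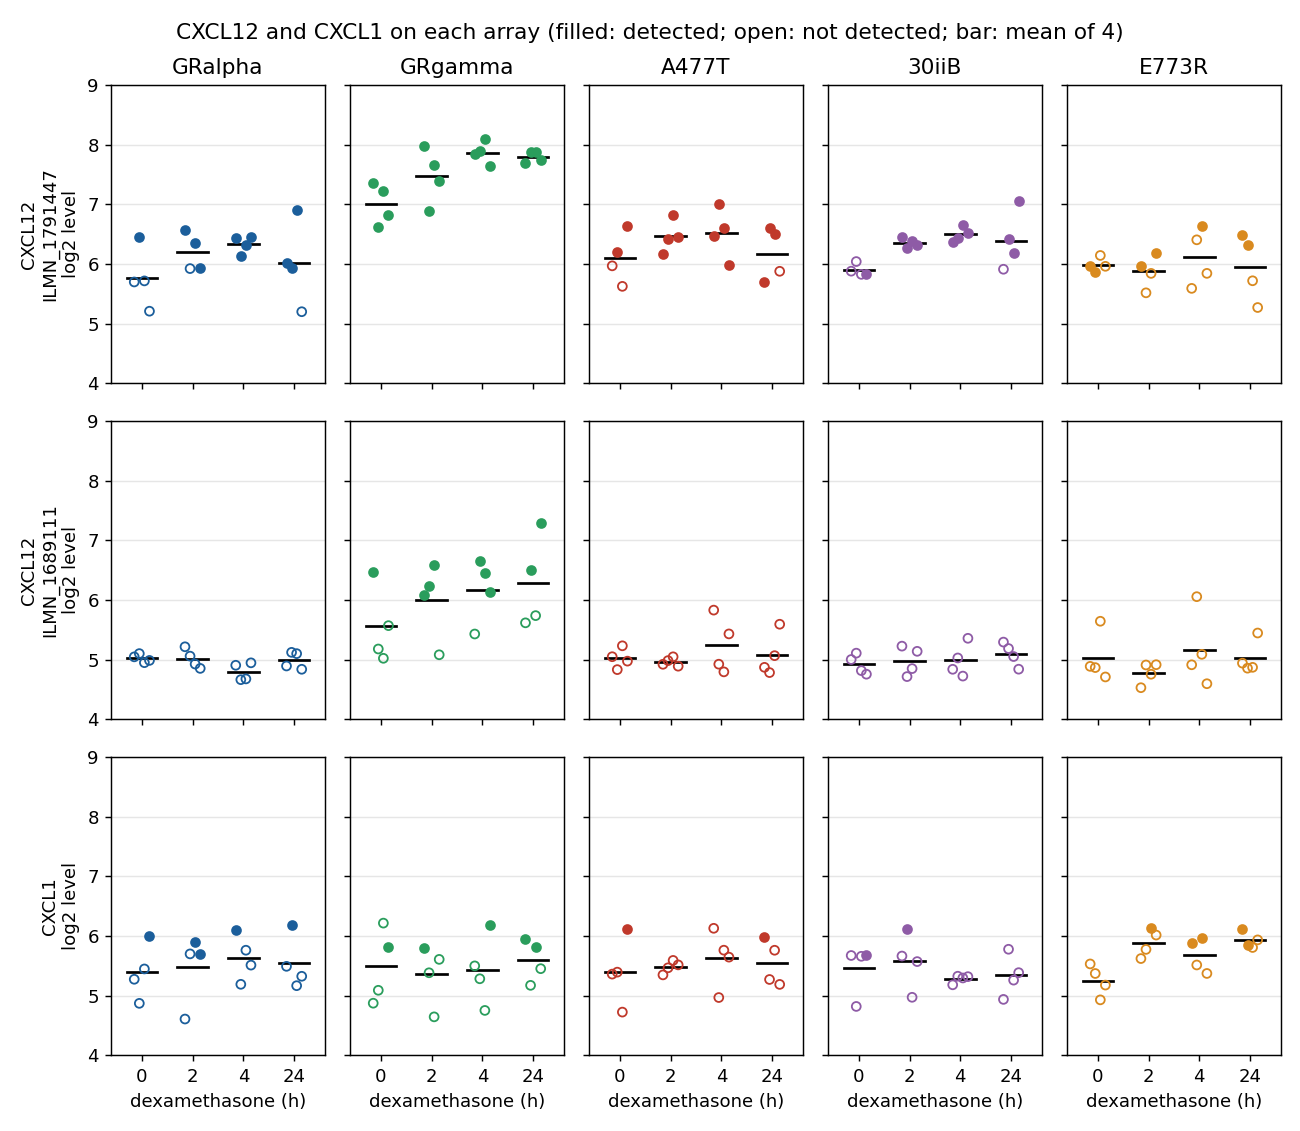
Log2 level of both CXCL12 probes and of CXCL1 (rows) on each of 80 arrays, by allele (columns) and hours of dexamethasone. Filled points were detected, open points were not, and bars are means of 4 arrays. CXCL12 lies higher in GRgamma cells on the brighter probe, and CXCL1 points are mostly open. The dimmer CXCL12 probe was detected in GRgamma cells alone and was kept because of them, so its height there adds no support.

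CXCL1, a neutrophil attractant with the NF-kB letters shown above, was detected on 19 arrays scattered over all 5 alleles. It ranged from 4.61 to 6.21 over the 80 arrays. In GRalpha cells it read 5.27, 4.87, 5.45 and 6.00 at 0 h, with replicate 4 detected, and 5.49, 6.18, 5.17 and 5.32 at 24 h, with replicate 2 detected. In E773R cells it read 5.53, 5.37, 4.93 and 5.18 at 0 h, with 0 arrays detected. At 24 h it read 6.12, 5.85, 5.81 and 5.93 there, with 2 detected, so no fold is given. That difference was not called (adjusted p = 0.253 in limma), but it was on the series matrix values (0.0429). The probes of CXCL2, CXCL6 and CCL5 had median raw intensities of 111, 112 and 130 and were not well above background on any array, so no level can be compared.

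The rest of the pathway was read from lists chosen with earlier results of these data known, and their members are counted without a test of the list. The shares of all probes called lower are those given above for each allele and time, with 0.331% for E773R cells at 4 h. The shares called higher at 4 h were 2.59% for GRalpha, 2.64% for GRgamma, 1.72% for A477T, 2.16% for 30iiB and 0.721% for E773R cells. At 24 h they were 7.89% for GRalpha, 4.25% for A477T, 7.6% for 30iiB and 2.89% for E773R cells, beside the 9.17% of GRgamma cells. Of 22 other chemokine ligands that passed the filter, 2 were called lower and 0 higher in GRalpha cells at 4 h, beside 1.76% of all probes lower, and 7 lower and 1 higher at 24 h, beside 8.48% lower and 7.89% higher, with a median of -0.37 against -0.02 over all probes. CX3CL1, the membrane-bound chemokine fractalkine, fell by 1.91 at 4 h and fell by 4.18 at 24 h on the log2 scale. CCL7, which attracts monocytes as CCL2 does, was already called at 2 h, at -1.67, with -1.76 at 4 h and -2.03 at 24 h. At 24 h the members of this list called lower numbered 5 for GRgamma, 7 for A477T, 6 for 30iiB and 4 for E773R cells, and 0 were called higher in these 4 alleles. Of 11 receptors, ACKR3, which takes up CXCL12, fell by 1.51 in GRalpha cells at 4 h and was the 1 call.

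Among 14 NF-kB subunits, kinases and adaptors, 2 were called lower in GRalpha cells at 4 h, beside 1.76% of all probes, and 4 at 24 h, beside 8.48%, with 1 called higher at 24 h, beside 7.89%. TNFRSF1A, a receptor of TNF, fell by 0.63 at 4 h. NFKB1, which encodes a DNA-binding subunit, fell by 0.87 at 4 h and fell by 1.53 at 24 h, and at 24 h it was called lower in all 5 alleles, from -1.57 in A477T to -1.17 in 30iiB cells. Of 11 NF-kB inhibitors and feedback genes, TSC22D3, whose product GILZ binds NF-kB, rose by 2.67 in GRalpha cells at 4 h. BCL3, a nuclear cofactor of NF-kB, fell by 2.40. In A477T cells 0 genes of this list were called higher at 4 or 24 h, 3 were called lower at 4 h, and 3 were called lower at 24 h. At 4 h 7 of the 11 had an unadjusted p under 0.05 in limma, in either direction. Of 9 factors that govern the decay of chemokine mRNA, ZFP36, which binds AU-rich elements, was the 1 called in GRalpha cells at 4 h. It rose by 2.02 there, by 1.32 in A477T and by 1.43 in E773R cells. Of these factors 1 was called higher in GRgamma cells at 4 h and 0 in 30iiB cells, beside 2.64% and 2.16% of all probes.

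Of 15 other secreted and surface genes driven by NF-kB, 3 were called lower and 1 higher in GRalpha cells at 4 h, beside 1.76% and 2.59% of all probes. LIF, a cytokine of the interleukin-6 family, fell by 3.77, PLAU, the urokinase protease, fell by 2.56 and IL6 fell by 1.90, and CSF3, a neutrophil growth factor, rose by 1.51. In A477T cells, where CXCL8 was not called at 4 h, LIF fell by 2.87 and PLAU fell by 2.40 at that time. In E773R cells 1 gene of this list, IL6, was called lower at 4 h, at -1.27, and 4 at 24 h. Of 9 glucocorticoid-induced reference genes, 4 were called higher at 4 h in GRalpha, GRgamma and E773R cells and 3 in A477T and 30iiB cells, with 1 called lower in A477T cells, beside shares of all probes called higher from 0.721% in E773R to 2.64% in GRgamma cells. Of 5 epithelial, 4 endothelial and 5 leukocyte markers tested, 1, 1 and 0 were called higher in GRalpha cells at 4 h and 0 lower. KRT5, an epithelial keratin, rose by 1.70 and KDR, an endothelial receptor, rose by 1.12. At 24 h 2 epithelial markers, 1 endothelial and 0 leukocyte markers were called lower there and KDR was called higher, at 1.37. CDH1, the epithelial cadherin, fell by 1.92, KRT14, a basal keratin, fell by 1.94 and VWF, the von Willebrand factor, fell by 2.80. CDH1 was called lower at 24 h in all 5 alleles, to -3.43 in 30iiB cells, and VWF in all but GRgamma cells. Among leukocyte markers 1 was called in any allele at 4 or 24 h, CSF1R at -1.61 in 30iiB cells at 24 h. The part of these markers in the chemokine results was not tested.

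The genes whose pattern was nearest to that of CXCL8 over the 20 group means were CCL3L3 (r = 0.94), PTPRR (0.92), TUFT1 (0.91), DUSP16 (0.91) and CD44 (0.91). For CCL2 they were FGF1 (0.94), CX3CL1 (0.93), CLDN1 (0.93), GTF2F2 (0.92) and EVA1A (0.92). Over the 80 arrays, after the group means were taken away, the nearest to CXCL8 were BCL6 (0.87), TNFAIP3 (0.86), BTG1 (0.85), PTGS2 (0.84) and DUSP1 (0.84). TNFAIP3 encodes A20, a feedback inhibitor of NF-kB, and PTGS2 encodes the inducible prostaglandin synthase. The nearest to CCL2 by that measure were CD70 (0.85), PI3 (0.85), AKR1C3 (0.83), LY96 (0.83) and H4C8 (0.83). The arrays share slides, and these correlations are descriptions.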

How the data were processed

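The deposited signal table held an intensity and a detection p-value for each of 25204 probes on each of 80 single-colour bead arrays, per the file headers. Array medians differed, so the signals were not scaled between arrays, and whether the authors subtracted a background is not stated. Per the labels, biotin-labelled RNA was hybridised. The deposited series matrix, for 21241 probes, behaved as log2 values against the signals of the same arrays, with a median slope of 0.963, and all 80 columns correlated best with their own array. The sources used here give neither its normalisation nor the scanner software. Gene symbols came from the platform annotation (19291 with 1 symbol, 5913 with none here, 19274 matched to the gene table).

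Intensities were background-corrected by normexp with inferred negative controls, an offset of 16 and quantile normalisation (neqc of limma 3.58.1 in R 4.3.3), giving log2 levels. Named probes detected on at least 4 arrays were kept (15392 kept, 3899 removed). A single limma model with 20 group means (60 residual and 5.65 prior degrees of freedom) gave all contrasts, two-sided, with Benjamini-Hochberg adjustment over the kept probes. For a group with 0 detected arrays a fold is a lower bound, and the number of arrays limits the precision. On simulated data the model was checked to recover large known changes, for GRalpha cells at 4 h against 0 h. Those data had independent normal errors, without slide effects or outlying arrays, so the check does not cover these. Python 3.11.15 with matplotlib 3.10.9 drew the figures. The 9 members, the lists and the named genes (every kept member probe, up to 4 called genes of a list by size in GRalpha cells at 4 h, else 24 h, and the 5 probes nearest to CXCL8 and to CCL2) were chosen with earlier results of these data known. The comparisons of levels at 2, 4 and 24 h between alleles, and the bounds under other scalings and without single arrays, were added after the data were seen.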

Additional observations from a re-analysis of the deposited data

Results flagged for a closer look

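In 8 of the 120 groups of 4 arrays tested (6 probes in 20 groups), 1 array lay far from the other 3 by Dixon's criterion, where chance flags about 1 in 20 groups. For CXCL8 these were GRgamma replicate 1 at 0 h, at 15.05 with the nearest other array at 13.11, A477T replicate 4 at 24 h, at 11.96 against 10.16, and E773R replicate 1 at 4 h, at 13.52 against 10.21. E773R replicate 1 at 4 h also stood apart for CCL20, at 13.42 against 10.52, and it had the highest CCL2 of its group, at 12.98. CCL2 in GRgamma replicate 1 at 24 h was 7.98 against 6.69. For CXCL1 the low arrays were GRalpha replicate 1 at 2 h, at 4.61 against 5.69, and 30iiB replicate 2 at 0 h, at 4.82 against 5.66, neither of them detected. The dimmer CXCL12 probe in E773R replicate 4 at 24 h was 5.45 against 4.94, with no array of that group detected.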

How the results depend on the processing

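Over the alternatives other than leaving out an array, 3223 of 3312 values of member probes kept their side of the threshold, 22 calls were lost and 67 gained, and over the 80 omissions of 1 array 2842 of 2880 kept it, with 24 lost and 14 gained. No called value changed sign. Between values not called the sign differed in 169 and 268 cases. Of the counts of member calls, the response at 2 h (0) was 2 with the series matrix values, 1 with the replicate block and 3 with the replicate block within allele. Of 60 correlations between the deviations of same-numbered arrays 27 were over 0.1, from -0.476 to 0.690 in all, 0 of 15 comparisons had all 4 over 0.1, and 21 of 60 arrays correlated best with their own number, so the numbers were not taken as paired. The change from 4 to 24 h (8) was 5 with median scaling of arrays and 13 with the replicate block within allele. The 1 call against GRalpha at 0 h became 0 with the compared groups alone and 0 with array weights. The response difference from GRalpha (0) became 1 at 4 h and 1 at 24 h with array weights, and 1 at 24 h with the replicate block within allele. Levels against GRalpha at 2 h (1) gave 2 without background correction, 4 with the series matrix values, 2 with the compared groups alone, 3 with the slide as a fixed or as a random block and 2 with array weights. At 4 h (5) they gave 2 with median scaling, 2 with the compared groups alone and 9 with array weights, and at 24 h (3) they gave 6 and 5 with the last 2 of these. Calls of the dimmer CXCL12 probe, kept through GRgamma cells, are among the 5 and the 3. The causes were not tested. Leaving out 1 array gave 0 to 1 calls for the response at 2 h, 8 to 9 at 4 h and 15 to 17 at 24 h, 6 to 9 from 4 to 24 h, 0 to 1 at 0 h, 0 for the response differences, and 1 to 3, 3 to 5 and 3 for levels against GRalpha at 2, 4 and 24 h. Scaling to the same median moved the median of all probes to between -0.17 and 0.15, and it kept the sign of every called member. In that setting 5 of 30 SDs at 0 h changed by at least their own size, those of CXCL12 on 4 occasions and that of CCL2 in A477T cells from 0.0855 to 0.285. The 0 h group matches the 4 h treatment alone in time, and dim probes limit what can be said of CXCL1, CXCL2, CXCL6 and CCL5.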
